A study of Rattus norvegicus with 11 samples.

Results

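The miR-29 family comprised 3 mature microRNAs, miR-29a, miR-29b and miR-29c, of the 340 rat microRNA names present on both array designs of this series. Members were chosen by name (rno-miR-29a, rno-miR-29b and rno-miR-29c, passenger strands with a star left out), a rule that uses no measured value, although the family itself was taken up with earlier results of these data known. The RNA came from pancreatic islets of female Sprague Dawley rats. Fathers of the HFD group ate pellets with 43% as fat and fathers of the Control group ate chow with 9%. Both kinds of father were mated at 15 weeks with chow-fed females. All daughters were weaned onto chow at 3 weeks, and their islets were harvested at 13 weeks, so the groups differed by the father's diet and not by the daughters' own. There were 6 Control and 5 HFD arrays, each hybridised with 100 ng of Cy3-labelled total RNA from a separately numbered islet sample. Whether a number stands for 1 daughter, and which daughters shared a father or litter, is not given in the sources used here, so a p-value below measures the spread between arrays, with no allowance for shared parents. The first array design held 4 Control and 4 HFD arrays and the second held 2 Control and 1 HFD array. Isolated islets are a mixed tissue, and in such samples fewer cells of a type and less RNA per cell cannot be told apart.

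microRNAs are short RNAs that guide Argonaute to messenger RNAs, mainly by pairing of the seed, bases 2 to 8 from the 5′ end, with the target. The miR-29 family is best known for repressing collagens and other matrix genes, and its loss accompanies fibrosis in several organs. In islet beta cells it represses Slc16a1, which encodes the monocarboxylate transporter MCT1 that beta cells normally keep off, and it also targets the survival gene Mcl1. Family members have been reported to be higher in islets exposed to high glucose and in tissues of diabetic rodents, which makes them of interest in daughters of fathers fed a high-fat diet.

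The mature sequences are shown because they set what an array probe for each member has to distinguish. They were taken from RefSeq (GRCr8) by matching each array name to the 3′ arm of its hairpin, written 5′ to 3′ with the seed in capitals.
miR-29a-3p: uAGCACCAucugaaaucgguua
miR-29b-3p: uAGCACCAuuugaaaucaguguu
miR-29c-3p: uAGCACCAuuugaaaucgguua
All 3 carried the seed AGCACCA, and among the 693 mature rat names in the RefSeq table no other name had it. Counting from the 5′ end, miR-29a and miR-29c differed at a single base, C10U, and were identical at 21 of 22 positions. From miR-29c to miR-29b the changes were G18A, U21G and A22U, with 1 further base at the 3′ end of miR-29b, which has 23 bases. miR-29a and miR-29b were identical at 18 of 22 positions. The array files used here give neither the arm nor the probe sequences, so cross-hybridisation between miR-29a and miR-29c was not tested.

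The family came from 4 genes in 2 clusters. Mir29a (mature at chr4:60617968-60617989, minus strand) and Mir29b1 (mature at chr4:60618342-60618364, minus strand) lay 291 bases apart on chromosome 4. Mir29b2 (mature at chr13:109098882-109098904, plus strand) and Mir29c (mature at chr13:109099412-109099433, plus strand) lay 447 bases apart on chromosome 13. Mature miR-29b is therefore the product of either cluster. Its 2 hairpins are shown with the mature sequence in capitals, because that stretch is the same in both.
Mir29b1: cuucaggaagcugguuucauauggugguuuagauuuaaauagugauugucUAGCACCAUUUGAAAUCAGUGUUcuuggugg
Mir29b2: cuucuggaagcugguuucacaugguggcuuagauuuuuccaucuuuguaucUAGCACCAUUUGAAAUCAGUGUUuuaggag
A signal for miR-29b could not be assigned to chromosome 4 or 13, whereas miR-29a and miR-29c each have a single gene.

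The arrays detected between 105 and 184 of the shared microRNAs, and none had a saturated spot. HFD 653 had the fewest, and the spread of its negative-control spots was 38.2 intensity units against 6.38 to 7.53 on the other 7 arrays of the first design. The islet marker miR-375, which restrains insulin secretion, was detected on all 11 arrays at scaled intensities of 4084 to 7305. miR-7a, miR-7b and miR-127 were also detected on all arrays, and miR-9 and miR-184 on none, so 4 of 6 islet endocrine markers were present. The acinar marker miR-216a was detected on all 11 arrays at scaled intensities of 23.0 to 731.8, and the acinar marker miR-217 on 4. Neither the 4 muscle markers nor the liver marker miR-122 was detected on any.

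Each member was measured by 2 probes, the same on both designs, with 10 spots apiece, which gave 220 spots per member over the 11 arrays. Every one of these spots was above background. Member spots fell lowest on Control 602 and HFD 653, which shared column 1 of the first slide. On each of these arrays 8 of the 60 member spots were below 0.5 of their probe's median, and 7 of the 8 were the same spots on both. The other 6 arrays of that slide had 0 to 2 such spots. Milder low spots were shared within the other columns too. In column 4 a miR-29c spot was at 0.46 of its probe's median on Control 613 and 0.30 on Control 615. In column 3 a miR-29c spot was at 0.61 on Control 639 and 0.60 on HFD 607. In column 2 a miR-29a spot was at 0.62 on both HFD 603 and HFD 644. For the brighter miR-29a probe the spots on Control 602 ran from 484 to 3934 intensity units with a median of 2930, a coefficient of variation of 46.2%. On HFD 653 they ran from 584 to 3864 with a median of 3180 and a coefficient of variation of 44.7%, against 6.97% to 22.6% on the other 6 arrays. The differences, ratios and correlations below that rest on these arrays are also given without them, in the text or among the processing alternatives.

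**Figure D1:**
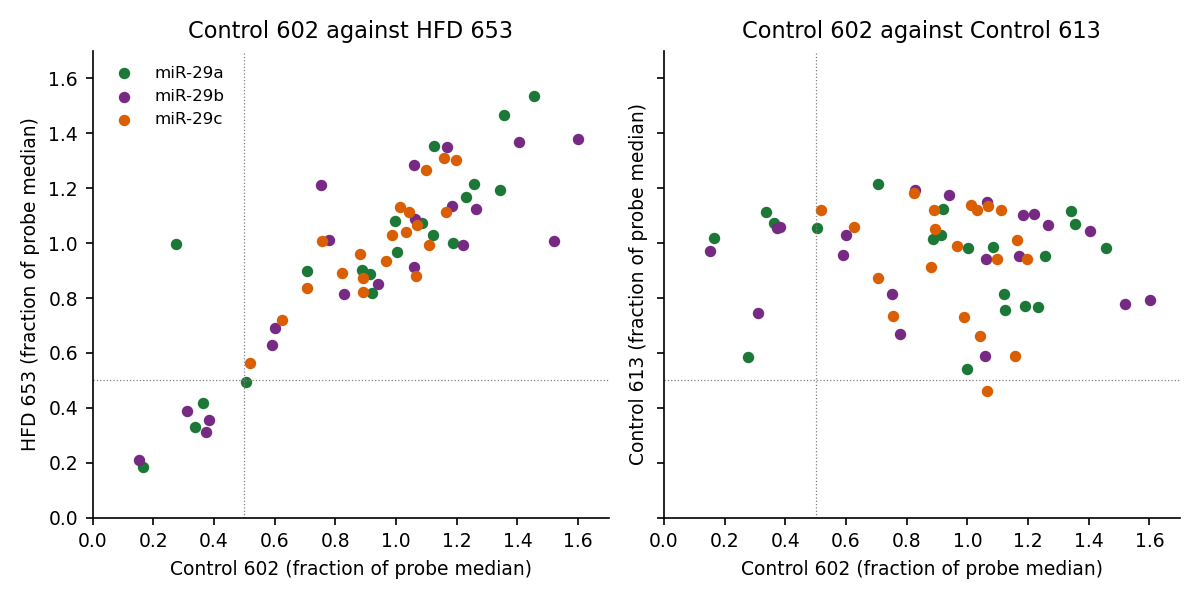
Each point is 1 of the 60 spots of the miR-29 probes, plotted as its intensity divided by the median of its probe on that array, for Control 602 (x axis) against HFD 653 (left) or Control 613 (right); dotted lines mark 0.5. On the left 7 spots lie below 0.5 on both arrays, and on the right no spot does.

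Across the 60 spots, the log fractions on Control 602 and HFD 653 had a Pearson r of 0.90, as a description with no test. The r of Control 602 with the other arrays of that slide lay between -0.23 and 0.12. The plot of spot fractions shows the shared low spots in the lower left corner of the first panel only, and they belonged to miR-29a and miR-29b. The cause was not tested.

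Levels of miR-29a are given as log2 of the scaled intensity, in which each array was divided by its 75th percentile over the 85 microRNAs detected on all arrays. On the first design they were 12.07, 12.35, 12.56 and 12.42 in Control 602, 613, 615 and 639. In HFD 603, 607, 644 and 653 they were 12.53, 12.46, 12.41 and 12.35. All 4 HFD arrays lay within the range of the Control arrays, and Control 602 was the lowest. The second design gave miR-29a levels of 11.95 and 12.19 in Control 635 and 652 and of 12.18 in HFD 640, which again lay between the Controls. The mean on the first design was 12.35 ± 0.20 (SD, n = 4) in Control and 12.44 ± 0.075 (SD, n = 4) in HFD.

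For miR-29b, the member made from both clusters, the log2 levels on the first design were 12.50, 12.89, 13.01 and 12.96 in the Control arrays, in the order used for miR-29a. The HFD arrays had 12.79, 12.94, 12.98 and 12.87, so they too lay within the Control range, with Control 602 lowest. Second-design values were 12.85 and 13.18 in Control 635 and 652 and 13.16 in HFD 640. The first-design means were 12.84 ± 0.23 (SD, n = 4) in Control and 12.89 ± 0.085 (SD, n = 4) in HFD.

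For miR-29c, encoded beside Mir29b2, the log2 levels were 11.30, 11.50, 11.65 and 11.66 in the first-design Control arrays. They were 11.50, 11.65, 11.54 and 11.53 in the HFD arrays, all within the Control range. On the arrays of the second design miR-29c was 11.72 and 11.84 in Control 635 and 652 and 11.90 in HFD 640, the one array of any member that lay above the Controls of its design. The first-design means were 11.53 ± 0.17 (SD, n = 4) and 11.55 ± 0.063 (SD, n = 4). On the first design the Control SD was larger than the HFD SD in all 3 members, and in each the lowest Control array of that design was Control 602.

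**Figure D2:**
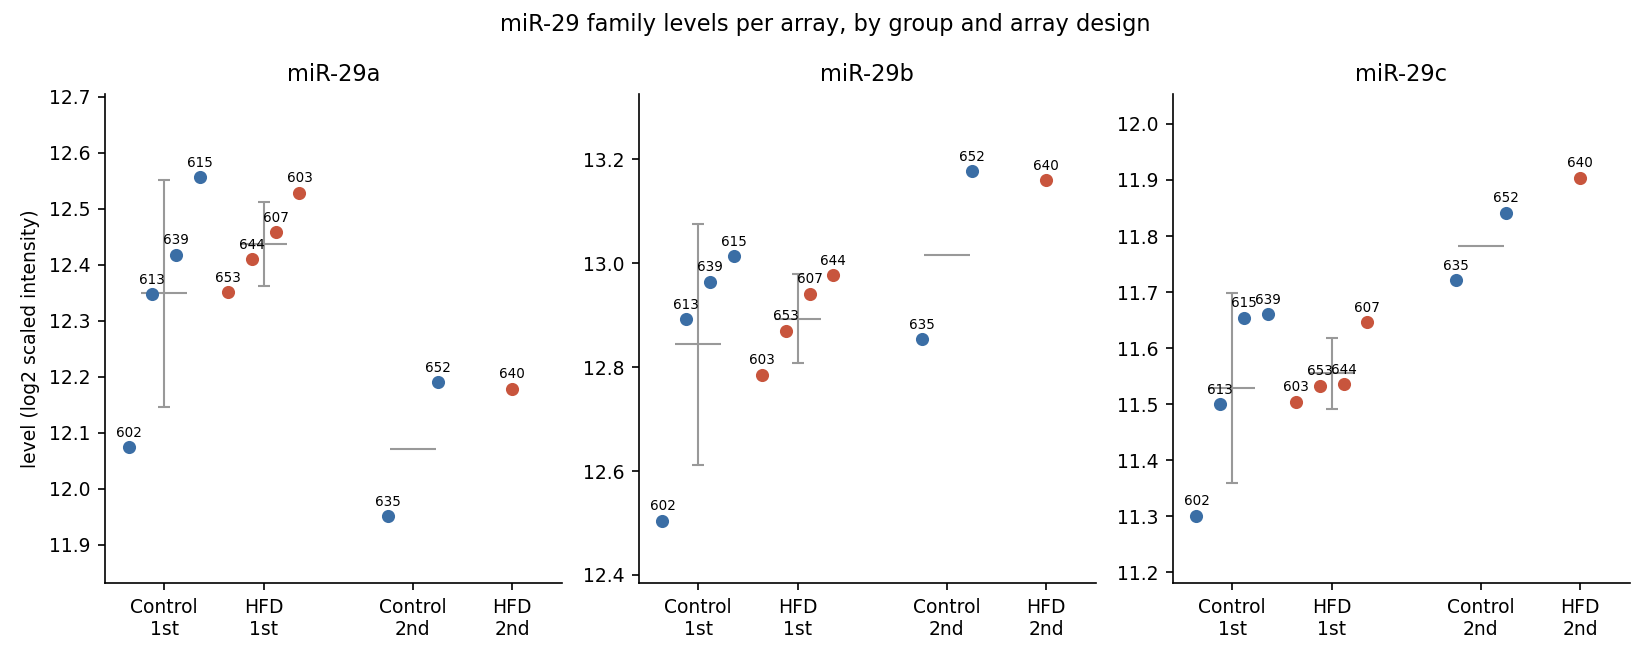
Level of miR-29a, miR-29b and miR-29c (log2 scaled intensity, y axis; ranges differ between panels) on each array, by group and array design (x axis: 1st or 2nd); points carry the sample number, horizontal lines are group means and bars are ± 1 SD for the groups of 4. The HFD arrays of the first design lie within the Control range in every panel, and Control 602 is the lowest of that design.

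The question posed by the design was whether the father's diet altered the daughters' islet microRNAs. For the miR-29 family no difference was detected. miR-29a differed between HFD and Control by 0.093 ± 0.10 (SE) on the log2 scale in limma with the array design as a block, which is a fold of 1.07 with a 95% interval of 0.908 to 1.25. For miR-29b the difference was 0.073 ± 0.12, a fold of 1.05 (0.879 to 1.26), and for miR-29c it was 0.050 ± 0.093, a fold of 1.04 (0.896 to 1.20). The adjusted p (limma, Benjamini-Hochberg over 152 microRNAs) was 0.987 for each, and the unadjusted p-values were 0.394, 0.542 and 0.605. None of the 3 members passed an adjusted p of 0.05, nor did any of the 152 microRNAs tested (0%), of which 3 (1.97%) had an unadjusted limma p under 0.05. Exact permutation of the group labels within each design, 2-sided over 210 splits and with a smallest possible p of 0.0048, gave p = 0.348 for miR-29a, 0.538 for miR-29b and 0.519 for miR-29c. The groups overlapped for every member, as for all but 1 of the 152 microRNAs (0.658% did not overlap).

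**Figure D3:**
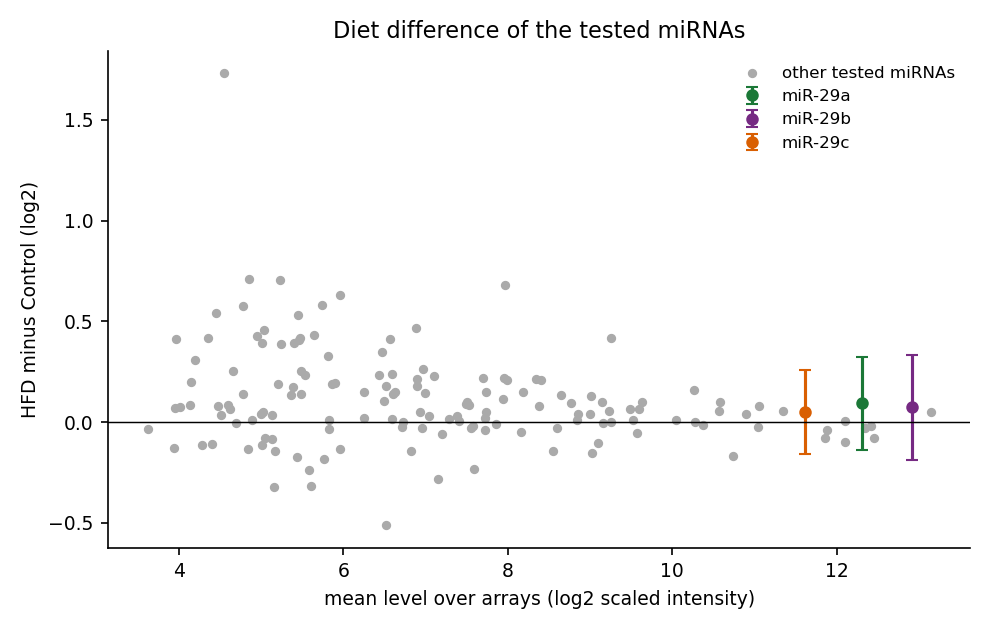
HFD minus Control (log2, y axis) against the mean level over the 11 arrays (log2 scaled intensity, x axis) for the 152 tested microRNAs; grey points are the other microRNAs and the coloured points are the 3 miR-29 members with their 95% intervals. Each member's interval includes 0, and the members' differences run from 0.050 to 0.093.

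With this scaling the intervals allowed a decrease to 0.908-fold or an increase to 1.25-fold for miR-29a, 0.879-fold to 1.26-fold for miR-29b and 0.896-fold to 1.20-fold for miR-29c. The intervals were wider with some other processing and narrower with some. With the 75th percentile of all shared microRNAs that of miR-29a ran from 0.700-fold to 1.19-fold, and without scaling from 0.699-fold to 1.80-fold. With quantile normalisation within array design it ran from 0.947-fold to 1.15-fold. The members were among the more precisely measured microRNAs. Their standard errors ranked 28th, 37th and 8th smallest of 152, where the median standard error was 0.18. The median difference of the 3 members was 0.073, beside 0.066 over all 152 microRNAs. All 3 differences were above 0 with this scaling, as were 71.1% of all microRNAs tested, and all 3 were below 0 with scaling on the array median or on the 75th percentile of all shared microRNAs. Those scalings moved the median of all 152 by -0.15 and -0.21. Relative to the median of all microRNAs the members differed by 0.027, 0.0074 and -0.016 in the order miR-29a, miR-29b and miR-29c. Of the 152 microRNAs, 85 had a larger absolute difference than miR-29a, 98 than miR-29b and 109 than miR-29c. The distance from the median of all microRNAs varied with the processing. It was 0.14, 0.13 and 0.15 for the members with quantile normalisation within array design. With the median over probes it was -0.063, -0.066 and -0.076.

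Control 602 set much of the size of these differences. Without it they were 0.028 for miR-29a, -0.0052 for miR-29b and -0.0019 for miR-29c. Without HFD 653 alone they were 0.11, 0.082 and 0.058. Without both arrays with the most low spots, Control 602 and HFD 653, they were 0.051, 0.0059 and 0.0079. With the median over spots in place of the mean they were 0.055, 0.067 and -0.0019. In these 4 treatments of the low spots no member passed, and the lowest adjusted limma p was 0.932, for miR-29a without Control 602.

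**Figure D4:**
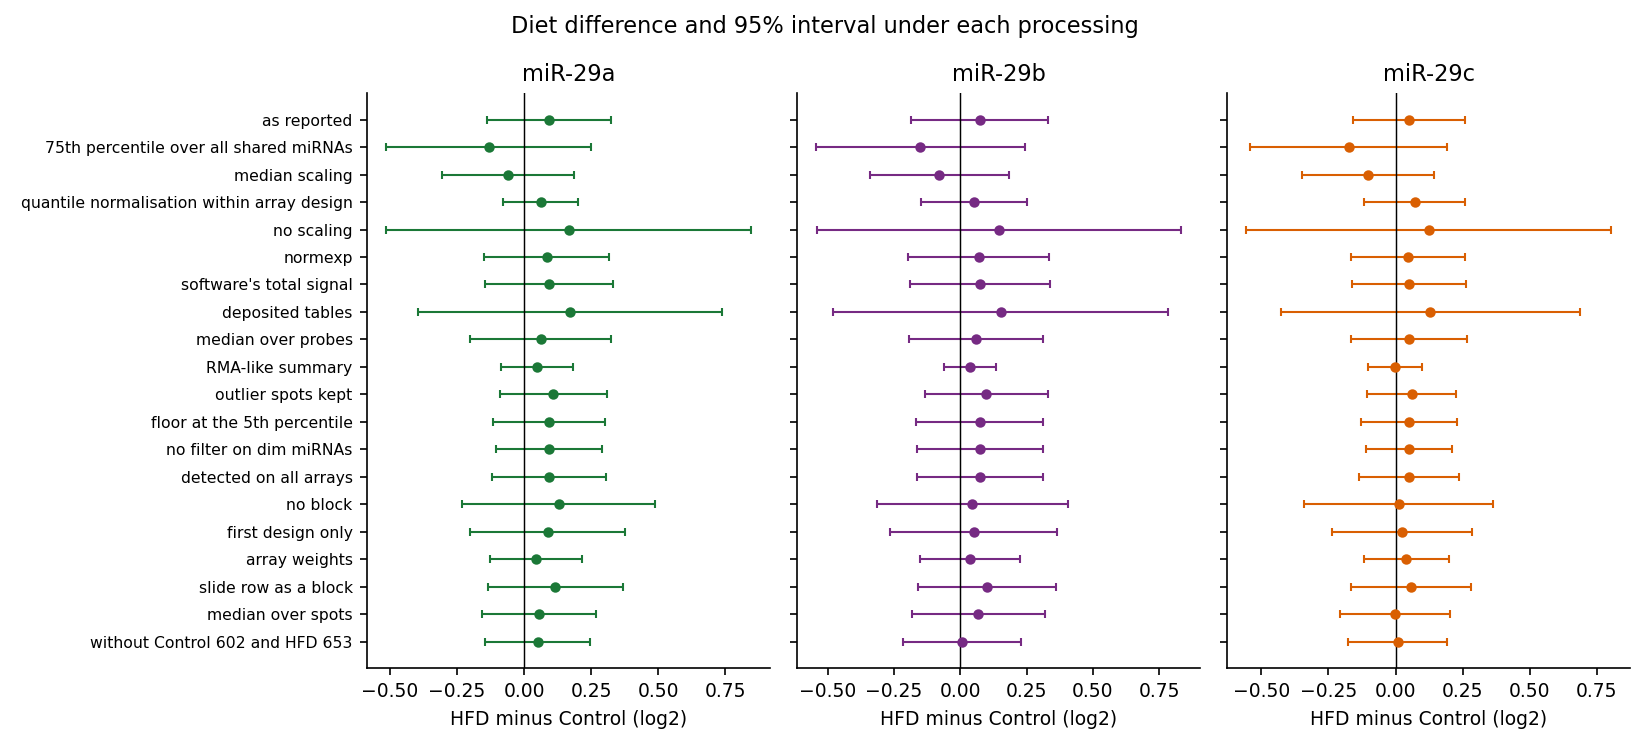
HFD minus Control (log2, x axis) with its 95% interval for each member under each way of processing the arrays (y axis). Every interval includes 0, and the point lies below 0 for all 3 members with median scaling and with scaling on the 75th percentile over all shared microRNAs.

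Within the first design alone the differences were 0.088 ± 0.12 (SE) for miR-29a, 0.050 ± 0.13 for miR-29b and 0.026 ± 0.11 for miR-29c, with an adjusted limma p of 1 for each. By slide row, miR-29a was higher in HFD than in Control by 0.28 in row 1, which held Control 602, and differed by -0.11 in row 2. miR-29b gave 0.16 and -0.065 and miR-29c gave 0.17 and -0.12 in rows 1 and 2, so the sign differed between the rows in every member. Without Control 602 and HFD 653 the rows gave 0.15 and -0.077 for miR-29a, -0.029 and -0.012 for miR-29b, and 0.075 and -0.12 for miR-29c, so the signs then differed for miR-29a and miR-29c. Within slide column 1, HFD 653 minus Control 602 was 0.28, 0.37 and 0.23 for miR-29a, miR-29b and miR-29c. Within column 3, HFD 607 minus Control 639 was 0.041, -0.023 and -0.015. Column 2 of that slide held only HFD arrays (603 and 644) and column 4 only Control arrays (613 and 615). There the father's diet and the slide column cannot be told apart. The difference between the designs in the effect of the father's diet was 0.019 ± 0.26 (SE), 0.095 ± 0.28 and 0.097 ± 0.23, with an adjusted limma p of 0.996 for each, on the assumption that HFD 640, alone in its group and design, varied as the other groups did.

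The brighter probe differed between HFD and Control by 0.098 for miR-29a, 0.089 for miR-29b and 0.071 for miR-29c, and the dimmer probe by 0.026, 0.028 and 0.028. Over the 245 probes tested the adjusted limma p of these 6 probes lay between 0.962 and 0.971. On the first design the dimmer probe was at -0.018, -0.016 and -0.0094 while the brighter one was at 0.10, 0.075 and 0.058, so the sign of the difference there depended on the probe. Without Control 602 and HFD 653 the brighter probe differed by 0.059, 0.024 and 0.042 over both designs and the dimmer by -0.043, -0.046 and -0.029. Over both designs the brighter probe thus lay above 0 and the dimmer below 0 in every member once these arrays were left out. On the first design alone the brighter probe was then at 0.048, -0.025 and 0.013, and the dimmer at -0.13, -0.14 and -0.10. There miR-29b had both probes below 0.

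The ratio of the 2 probes within an array, in which scaling cancels, differed by array design for miR-29a and miR-29b. For miR-29a the brighter probe exceeded the dimmer by 2.66 to 2.99 on the log2 scale on the first design and by 0.907 to 1.05 on the second. For miR-29b the ratio was 0.937 to 1.56 on the first design and 0.301 to 0.353 on the second. For miR-29c it was -0.053 to 0.290 and 0.151 to 0.207, which overlapped. The lowest first-design ratios of miR-29b were those of Control 602 (0.937) and HFD 653 (0.964), and the other arrays of that design had 1.31 to 1.56. Among the 80 microRNAs with 2 probes that were detected on all arrays, the median absolute shift between designs was 1.47, and 24 shifted more than miR-29a, 61 more than miR-29b and 79 more than miR-29c. The designs held the same probes but differed in slide, scan and software version together, which cannot be told apart.

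**Figure D5:**
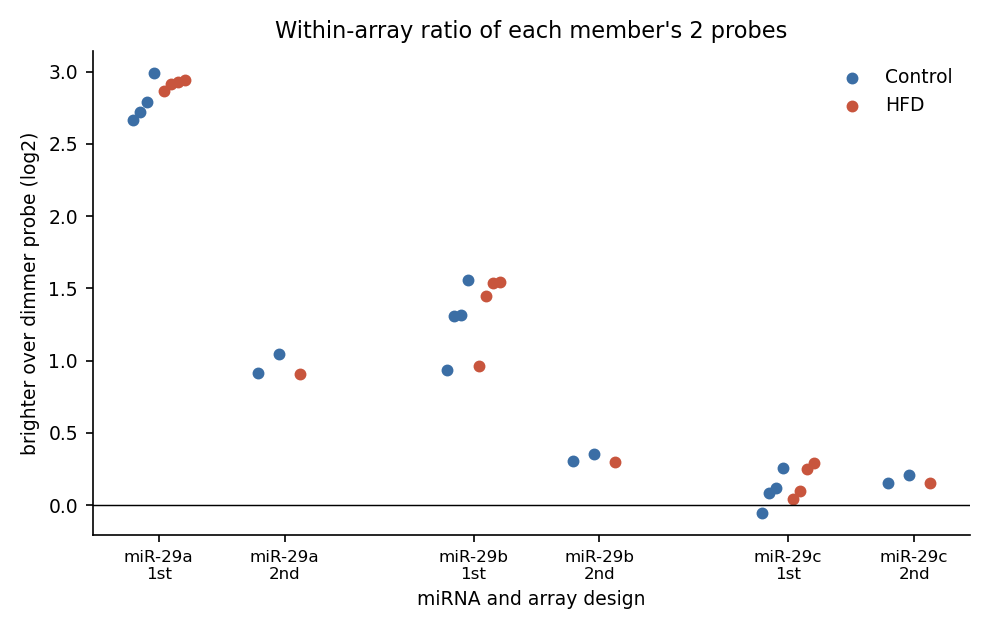
Brighter over dimmer probe of each miR-29 member on the same array (log2, y axis), by member and array design (x axis); each point is 1 array, coloured by group. The miR-29a points fall from 2.66 to 2.99 on the first design to 0.907 to 1.05 on the second, and the miR-29c points overlap.

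Ratios between members within an array test whether the members changed unequally and need no scaling between arrays. They give no level of one member against another, since each rests on other probes. On the first design the log2 ratio of miR-29a over miR-29c was 0.773, 0.847, 0.901 and 0.757 in Control 602, 613, 615 and 639. It was 1.02, 0.812, 0.874 and 0.818 in HFD 603, 607, 644 and 653. HFD 603 was the highest and the other HFD arrays lay among the Controls. On the second design the ratio was 0.229 and 0.349 in Control and 0.274 in HFD, so the linear ratio of 1.17 to 1.27 lay wholly below the 1.69 to 2.03 of the first design.

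The log2 ratio of miR-29b over miR-29c, whose genes Mir29b2 and Mir29c are neighbours, was 1.20, 1.39, 1.36 and 1.30 in the first-design Controls and 1.28, 1.29, 1.44 and 1.34 in the HFD arrays. Arrays of the second design had 1.13 and 1.33 in Control and 1.26 in HFD. This was the one ratio whose ranges overlapped between designs, at 2.30 to 2.72 and 2.19 to 2.52 on the linear scale. For miR-29a over miR-29b, whose genes Mir29a and Mir29b1 are neighbours, the log2 ratio was -0.430, -0.545, -0.458 and -0.547 in the Controls and -0.256, -0.483, -0.568 and -0.519 in the HFD arrays of the first design. Second-design ratios were -0.903 and -0.986 in Control and -0.981 in HFD, below every array of the first.

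No unequal change of the members with the father's diet was detected. HFD minus Control was 0.043 for miR-29a over miR-29c, 0.023 for miR-29b over miR-29c and 0.020 for miR-29a over miR-29b. The exact permutation p-values, 2-sided within design, were 0.429, 0.667 and 0.805, and each was 0.805 after Benjamini-Hochberg adjustment over the 3 pairs. The standard deviations of these ratios over the 8 first-design arrays were 0.085, 0.073 and 0.10, larger than the differences. Without HFD 603 the differences of miR-29a over miR-29c and over miR-29b were 0.0067 and -0.031. HFD 603 was also the array with the highest scaled intensity on the first design of the acinar marker miR-216a (731.8, others 23.0 to 679). The other acinar marker on the arrays, miR-217, was detected on Control 602 alone among the first-design arrays. HFD 603 was also highest there for the leukocyte markers miR-142-3p (112.1, others 3.40 to 9.39) and miR-150 (229.7, others 10.4 to 78.2). Its summed scaled intensities of the fibroblast and smooth muscle markers (735) and of the endothelial markers (674) were the highest there too. The part of these markers in the ratios of HFD 603 was not tested.

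Before scaling, the highest first-design array exceeded the lowest by 1.75-fold for miR-29a, 1.92-fold for miR-29b and 1.69-fold for miR-29c. After scaling the spans were 1.40-fold, 1.42-fold and 1.28-fold. Over these 8 arrays miR-29c varied with miR-29a and with miR-29b by Pearson r, while no pair passed an adjusted p of 0.05 by Spearman rho. miR-29b and miR-29c had a Pearson r of 0.91 (exact permutation p = 0.00459, adjusted over 3 pairs 0.0138) and a Spearman rho of 0.81 (exact permutation p = 0.0218, adjusted 0.0653). miR-29a and miR-29c had r = 0.82 (exact permutation p = 0.0230, adjusted 0.0345) and rho = 0.667 (exact permutation p = 0.0831, adjusted 0.125). miR-29a and miR-29b had r = 0.80 (exact permutation p = 0.0540, adjusted 0.0540) and rho = 0.52 (exact permutation p = 0.197, adjusted 0.197).

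The relations of miR-29a rested on Control 602, and that of miR-29b and miR-29c was weaker without it. Without the 2 arrays farthest from the median, r was 0.65 for miR-29b and miR-29c (without Control 602 and HFD 603; exact permutation p = 0.197). It was 0.14 for miR-29a and miR-29c (without Control 602 and Control 615; exact permutation p = 0.801) and -0.38 for miR-29a and miR-29b (the same arrays left out; exact permutation p = 0.475). Without Control 602 alone the values of r were 0.71, 0.40 and 0.093 for these pairs. The call for miR-29a and miR-29c also ended, at nearly the same r, without Control 613 (0.82, adjusted exact permutation p = 0.0690), without Control 615 (0.79, adjusted 0.0842) and without HFD 653 (0.82, adjusted 0.0518). Without HFD 603 the pair miR-29a and miR-29b passed as well, with r = 0.96 (adjusted exact permutation p = 0.00506). The other pairs kept their calls there. For miR-29a and miR-29c r was 0.94 (adjusted exact permutation p = 0.00506), and for miR-29b and miR-29c it was 0.91 (adjusted 0.0143). The arrays' scaling is shared by all members and enters each r.

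The microRNAs outside the family whose scaled log2 levels followed each member most closely over the same 8 arrays are given as a description. For miR-29a they were miR-30c, miR-24 and miR-27b with r of 0.920, 0.915 and 0.893, where the median r over 148 candidates was 0.197. For miR-29b they were miR-325-3p, miR-22 and miR-136 with r of 0.985, 0.971 and 0.952 (median 0.269). For miR-29c they were miR-7b, miR-22 and miR-103 with r of 0.965, 0.943 and 0.922 (median 0.207). miR-22 was shared by miR-29b and miR-29c, and no other name was shared. Without Control 602 and HFD 653 the r values with miR-29a were 0.55, 0.45 and 0.26, those with miR-29b 0.92, 0.82 and 0.92, and those with miR-29c 0.95, 0.84 and 0.89, in the same orders. The r values with miR-29a were thus lower without those arrays, while each r with miR-29b and miR-29c was 0.82 or more. The median r over the candidates was then 0.081 for miR-29a, 0.374 for miR-29b and 0.180 for miR-29c. The names were picked as the highest on the same 8 arrays, so the values without Control 602 and HFD 653 are no independent check.

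The passenger strands, the arms of the hairpin that are usually degraded, were dim. The strand opposite miR-29c, miR-29c-5p on chr13:109099374-109099395 (GRCr8, plus strand), is the star strand detected on every array, and its own seed in capitals differs from that of the family.
miR-29c-5p: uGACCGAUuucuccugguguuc
Its scaled intensity on the first design was 78.6, 86.5, 107.7 and 93.5 in the Control arrays and 83.9, 92.6, 100.1 and 182.2 in HFD 603, 607, 644 and 653. Second-design intensities were 89.0 and 82.3 in Control and 96.5 in HFD. The highest value was that of HFD 653, the array with the widest negative-control spread, and the other HFD arrays of the first design lay within the Control range. HFD minus Control was 0.24 ± 0.19 (SE), with an adjusted limma p of 0.987, and 0.059 ± 0.11 without HFD 653. The other passenger strands were at or below the limit of detection: miR-29a* was detected only on Control 652 and HFD 640, and miR-29b-1* and miR-29b-2* on no array.

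The members belong to a list of 22 microRNAs linked by earlier work to diabetic or glucose-exposed islets. Of its 19 tested members, 15 (78.9%) had a difference above 0 and 4 below, none passed the test, and the median difference was 0.049, beside 71.1% above 0 and a median of 0.066 over all 152 microRNAs. The direction turned with the scaling: 3 of the 19 were above 0 with median scaling and 3 with the 75th percentile of all shared microRNAs, where 32.2% and 23.7% of all 152 were. Without the miR-29 members 12 were above 0 and 4 below, and the median was 0.025. The smallest unadjusted p-values in that list belonged to miR-212, a CREB-responsive microRNA, with a difference of 0.42 ± 0.30 (SE), and to miR-29a itself, and outside the family to miR-335 with 0.25 ± 0.35.

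They also belong to a list of 21 fibrosis-linked microRNAs, of which 17 were tested. Of these 14 (82.4%) were above 0 and 3 below, none passed, and the median was 0.056, both with and without the 3 miR-29 members, beside the same 71.1% and 0.066 over all microRNAs. With median scaling 3 of the 17 were above 0, and with the 75th percentile of all shared microRNAs 1 was. The smallest unadjusted limma p was that of miR-150, a lymphocyte microRNA, at 0.0180. Its difference was 1.73 ± 0.61 (SE) with an adjusted limma p of 0.987. It was detected on 7 of the 11 arrays, with scaled intensities of 10.4 to 16.8 in Control, near the floor of 11.3. Its HFD intensities of 14.7 to 229.7 were highest on HFD 603, and HFD 653 had 78.2 without being called detected. Next was miR-192 with a difference of 0.18 ± 0.17. Markers of other cells present in islet preparations moved from array to array. The summed scaled intensity of the 6 fibroblast and smooth muscle markers was 313 to 541 in the Control and 324 to 735 in the HFD arrays of the first design. The summed leukocyte markers, of which 4 of 5 were on the arrays, were 36.4 to 44.3 in Control and 36.9 to 391.6 in HFD. The 2 endothelial markers were 427 to 552 and 385 to 674. The summed acinar markers, of which 2 of 3 were on the arrays, were 23.0 to 684 in Control and 116 to 732 in HFD. The highest leukocyte sum was that of HFD 603, followed on that design by HFD 653 (137.3), where no leukocyte marker was detected. On the second design the leukocyte sum was 161.4 and 85.5 in Control 635 and 652 and 160.2 in HFD 640. Of the red cell markers, miR-451 was detected on 3 arrays, those of the second design, and miR-144 on none. The part of these cells in the levels of the miR-29 members was not tested.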

How the data were processed

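RNA of 11 islet samples was measured on 1-colour Agilent microRNA arrays of 2 designs. The deposited scanner files hold spot intensity after Feature Extraction 10.5.1.1 (first design) or 10.7.3.1 (second), per the file headers. The authors' deposited value tables hold log2 values. The first design's equalled log2 of the total intensity plus 50 (2720 of 2720 cells within 0.001), and the second's log2 of the total (470 of 477 cells). Their column medians were 5.68 to 5.83 and 6.69 to 7.01, so neither table was centred. RMA and Partek appear in the submitters' processing notes, with the steps they served not given in the sources used here.

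Processed intensities of spots without an outlier flag were averaged per probe, summed per microRNA, divided by the array's 75th percentile over the 85 microRNAs detected on all arrays, floored at the 1st percentile of detected values (11.3) and log2-transformed. This percentile lay at miR-26b on the first design. limma 3.58.1 (R 4.3.3) tested the 152 microRNAs detected on at least 5 arrays, with array design as a block, and was tested on simulated data. Slide and scan coincide with design. Alternatives were other scalings, backgrounds, summaries, filters and blocks, and leaving out each array. The normexp alternative used median spot signals, since mean signals were not used here.

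Named microRNAs were all members and their passenger strands, the 3 microRNAs most like each member, the markers, and the 2 of smallest p in each list. The members and lists were chosen with earlier results of these data known. The number of arrays limits the precision.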

Additional observations from a re-analysis of the deposited data

How the results depend on the processing

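No member passed the test under any of 30 alternatives, in which its adjusted limma p lay between 0.801 and 1. The sign was not stable. With scaling on the 75th percentile over all shared microRNAs the differences of miR-29a, miR-29b and miR-29c were -0.13, -0.15 and -0.17, and with median scaling they were -0.060, -0.079 and -0.10. miR-29c was also below 0 with an RMA-like summary (-0.0028) and, chosen after seeing the data, with the median over spots (-0.0019). Leaving out 1 array gave 0.028 to 0.14, -0.0052 to 0.12 and -0.0019 to 0.084, and within the first design -0.0032 to 0.16, -0.063 to 0.11 and -0.050 to 0.070, with Control 602 left out at each lower end. Without scaling 1 microRNA, miR-150, passed an adjusted limma p of 0.05, with an adjusted p of 0.00062 from limma, in place of 0. The ratio differences without 1 array were 0.0067 to 0.063 (miR-29a over miR-29c), -0.0033 to 0.044 (miR-29b over miR-29c) and -0.031 to 0.044 (miR-29a over miR-29b). Other ratio differences that changed sign were -0.0020 for miR-29b over miR-29c without Control 602 and HFD 653, and -0.012 for miR-29a over miR-29b with the median over spots. The correlations without 1 array were 0.40 to 0.94 (miR-29a with miR-29c), 0.71 to 0.95 (miR-29b with miR-29c) and 0.093 to 0.96 (miR-29a with miR-29b). Without Control 602 and HFD 653, left out after seeing the data, they were 0.32, 0.68 and -0.051. That of miR-29a with miR-29b passed the threshold on residuals from the group means (0.80, adjusted exact permutation p = 0.0264), with the 75th percentile of all shared microRNAs (0.93), without scaling (0.97) and without HFD 603 (0.96). The causes were not tested. No paired analysis was made, since the sample numbers of the groups do not repeat and the sources used here name no pairs.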
